A study of Mus musculus with 6 samples.

Results

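The genes described here encode the oxidative phosphorylation machinery of the inner mitochondrial membrane and the carriers that share that membrane with it. They were chosen by symbol alone, as every row that starts with NDUF, UQCR, COX and a digit, ATP5 or SLC25A, together with SDHA to SDHD, CYC1 and CYCS. The rule took 135 of the 13892 rows, and all 135 passed the filter on low values. Of these, 93 belong to the respiratory chain and ATP synthase (76 subunits, cytochrome c included, and 17 assembly factors), 36 are mitochondrial carriers of the SLC25 family, and 6 are antisense or near-copy rows (COX10-AS1, NDUFA6-AS1, NDUFB2-AS1, NDUFAF4P1, UQCRBP1 and ATP5L2). None of the 13 subunits encoded by mitochondrial DNA was in the table, so only the nuclear part of the chain is described.

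The study took human hematopoietic stem cells, introduced NPM1c, a mutant nucleophosmin that is displaced to the cytoplasm, and grew them in NSG mice, an immunodeficient strain, where they gave rise to de novo acute myeloid leukemia (AML). The 3 mice came from 3 separate transductions and were moribund at harvest. Bone marrow of each mouse was sorted into bulk leukemic cells (GFP+ CD33+) and leukemic stem cells (LSC, GFP+ CD33+ CD123+), which gave 3 libraries of each population and 6 in all. GFP stood in for NPM1c in both gates, so all 6 libraries carry it, and no normal human cells without NPM1c are among them. CD33 marks myeloid cells, and CD123 is the product of IL3RA, the alpha subunit of the receptor for interleukin 3. As labelled, bulk sorting did not exclude CD123+ cells. Libraries with the same number are from the same mouse. Values are CPM, read counts scaled to a normalized library size and back-transformed from the deposited log2 scale. A change is LSC minus bulk in log2.

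Complex I takes electrons from NADH and complex II takes them from succinate, and both pass them through ubiquinone to complex III, cytochrome c and complex IV, where oxygen is reduced. Complexes I, III and IV pump protons, and complex V, the ATP synthase, lets them flow back to make ATP. The SLC25 carriers exchange what the matrix uses and makes: ADP for ATP, phosphate, amino and keto acids, acylcarnitines, cofactors and iron. In leukemia biology, the reliance of LSC on oxidative phosphorylation is a much studied question, and mitochondrial iron import serves heme synthesis in erythroid cells.

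Total reads were 10669560 to 14933494 per library, but MTRNR2L rows, nuclear genes that resemble mitochondrial ribosomal RNA, held 27.2% to 70.0% of them. Bulk 1 had 3423878 reads outside those rows, against 6132431 to 9571165 in the others. The normalized library size behind the CPM was 5840753 in bulk 1, which had 11420127 reads, and 11807858 to 15773981 in the others. A level of 3 reads was worth 0.514 CPM in bulk 1 and 0.190 to 0.254 CPM elsewhere. IL3RA, which the LSC gate selects, was 1.56 to 2.39 CPM in bulk and 48.0 to 139.5 CPM in LSC. CD33, which both gates select, was 4.47, 8.23 and 13.1 CPM in bulk and 6.82, 8.07 and 1.19 CPM in LSC, with only 16 reads in LSC 3, the lowest of the 6 libraries. The groups overlapped, with a change of -0.96 (adjusted p 0.512). The populations also differed in markers of other cells. The 6 plasmacytoid dendritic cell markers summed to 54.1 to 241 CPM in bulk and 719 to 1643 CPM in LSC, and all 6, IL3RA among them, were higher in LSC. Monocyte markers (5 of 6 in the table) summed to 3264 to 5201 CPM in bulk and 912 to 2510 CPM in LSC, with 1 lower. B lineage markers (6 of 6) summed to 92.7 to 677 CPM in bulk and 16.0 to 40.4 CPM in LSC, with 1 lower. Markers of dividing cells (6 of 6) summed to 3174 to 6676 CPM in bulk and 806 to 1378 CPM in LSC, with 4 lower. T and NK markers (4 of 6) ranged from 20.1 to 39.8 CPM over all 6 libraries with none called. The part of these cells in the values below was not tested.

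No gene of the respiratory chain or carrier family passed the limma test that treats the 6 libraries as independent. All of their adjusted p were above 0.05, while 4.04% of all 13755 genes tested passed (2.71% higher and 1.33% lower in LSC). At an unadjusted p under 0.05, 18 of the 135 stood apart, 12 higher and 6 lower, or 13.3% against 20.2% of all genes, and voom on the recovered reads also called 0 after adjustment. When the mouse was entered as a block, 12 of the 135 passed, 7 higher and 5 lower in LSC. These are 8.89% of the members, under the 16.0% of all genes that passed with the block (8.25% higher and 7.71% lower). All 7 higher genes and 2 of the lower ones were in the respiratory chain, and the other 3 lower ones were carriers. Because the libraries are of sorted populations, fewer cells of a type and less RNA per cell cannot be told apart in any of these values.

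Most changes were small, and more were above 0 than below it. The median change was 0.23 over the respiratory chain and 0.30 over the carriers, beside -0.00364 over all genes tested. The respiratory chain median was 0.27, 0.10 and 0.29 in mice 1, 2 and 3, and that of the carriers was 0.46, 0.15 and 0.11. Of the 135 rows, 86 (63.7%) had a positive change, as did 49.8% of all genes. Changes beyond 1 log2 unit in either direction were found in 18.5% of the members (16 up and 9 down) and in 26.9% of all genes. The 3 libraries of each group did not overlap for 22 members higher in LSC (16.3%, background 13.2%) and for 5 lower (3.70%, background 11.9%), or 20.0% against 25.2% in all. The change was positive in all 3 mice for 47 members and negative in all 3 for 18, together 48.1% of them against 53.2% of all genes. Few members were measured closely enough to bound the change: the 95% interval lay within 1 log2 unit on both sides of 0 for 17 of 135 (12.6%, against 11.4% of all genes).

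**Figure D1:**
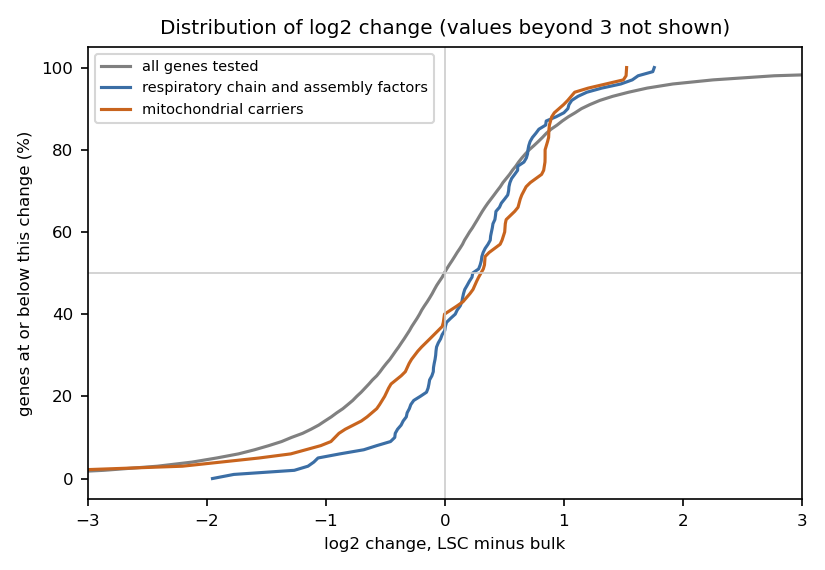
Cumulative share of genes (y axis, percent) at or below a given log2 change, LSC minus bulk (x axis), for all genes tested, the respiratory chain with its assembly factors, and the carriers. The 2 member curves cross the 50% line at 0.23 and 0.30, right of the curve of all genes at -0.00364, and have shorter tails on the right.

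The variation over the libraries was split between the populations, the mice and a rest. With more mice than populations, noise alone would give the mice a larger share than the populations. The shares are therefore read only against those of all genes. Of the summed variation of the respiratory chain over the 6 libraries, 31.3% lay between the populations and 45.9% between the mice, while all genes tested had 41.6% and 38.2%. The carriers had 41.7% and 38.0%, near the shares of all genes, but large changes weigh most in such a sum. SLC25A21, with a change of -5.31 that rests on 1, 16 and 0 reads in LSC 1 to 3, weighs heavily in it. Shares without that gene were not computed, so no contrast between carriers and chain is drawn.

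**Figure D2:**
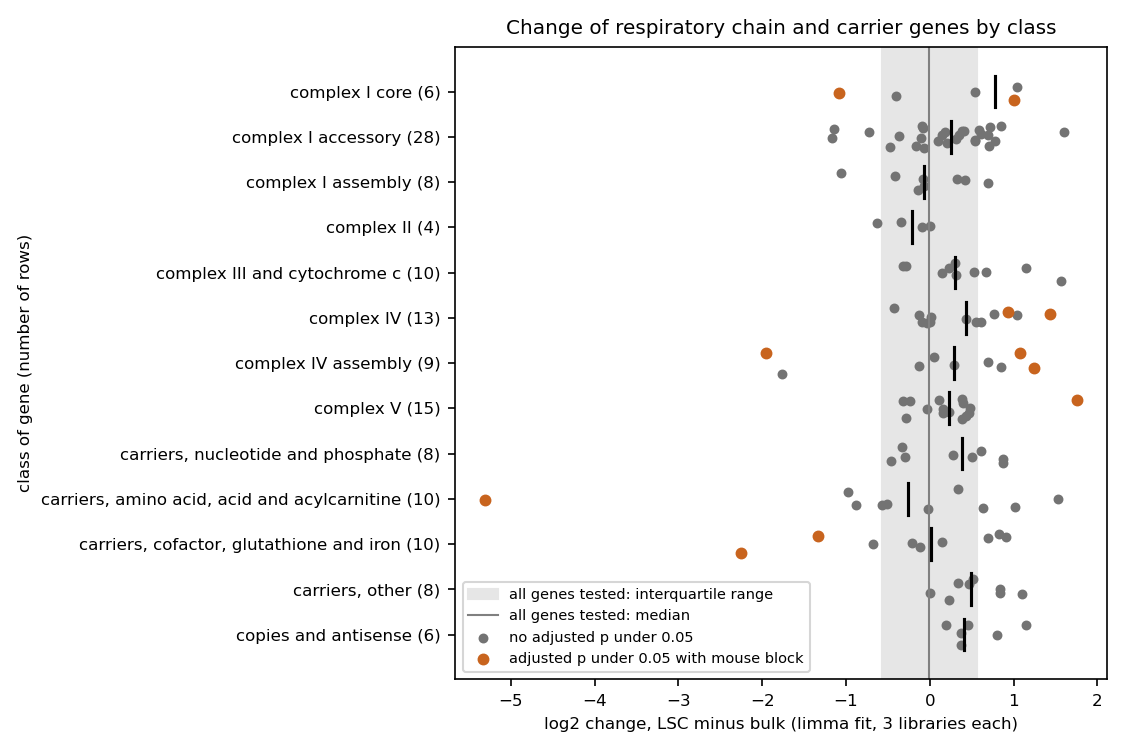
Log2 change of 133 members, LSC minus bulk (x axis), by class (y axis, number of rows in the table in brackets). Grey points had no adjusted p under 0.05, and orange points passed only with the mouse as a block. Black bars are medians over all rows of a class, plotted or not, and the shaded band is the interquartile range of all genes. The class medians run from -0.26 to 0.78, and 8 of the 11 orange points are in complexes I, IV and V or among complex IV assembly factors.

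Core subunits of complex I had changes in both directions, with NDUFV2 higher and NDUFS1 lower in LSC with the block. The 6 core subunits in the table had a median change of 0.78, and the groups did not overlap in 4 of them (3 higher, 1 lower), beside 25.2% of all genes (13.2% higher and 11.9% lower). NDUFV2, an iron-sulfur subunit of the NADH-oxidizing module, was 28.6, 30.3 and 30.4 CPM in bulk and 79.3, 49.9 and 54.3 CPM in LSC. The bulk libraries were nearly alike and all 3 LSC libraries lay above them, with a change of 1.01 (SE 0.30, adjusted p 0.0998, and 0.0278 with the block). NDUFS1, the largest subunit and a carrier of several iron-sulfur clusters in the same module, went the other way: 33.1, 33.6 and 28.2 CPM in bulk against 20.0, 12.4 and 13.2 CPM in LSC. All 3 LSC libraries were below all 3 bulk libraries, by -1.08 (SE 0.33, adjusted p 0.108, and 0.0308 with the block). Among other core subunits, NDUFS8 was 1.75 to 2.81 CPM in bulk and 3.42 to 7.09 CPM in LSC without overlap (change 1.05, adjusted p 0.322, and 0.220 with the block). NDUFV1, which binds NADH, and NDUFS3 overlapped between the groups, with changes of 0.54 and -0.40.

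A ratio of 2 genes within a library does not depend on how that library was scaled. These pairs were picked after the values were seen, and the 0 of each difference has no meaning because transcript lengths differ. The log2 difference NDUFV2 minus NDUFS1 was -0.21, -0.15 and 0.11 in bulk and 1.98, 2.00 and 2.04 in LSC. The mean shift was 2.09, with an SD of 0.14 over 3 mice, against 0.95 to 1.28 in the other pairs computed. Here, as in COX16 minus COX20 and SLC25A28 minus SLC25A37 below, 1 gene rose and 1 fell in all 3 mice. That choice fixed the direction of the shift.

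**Figure D3:**
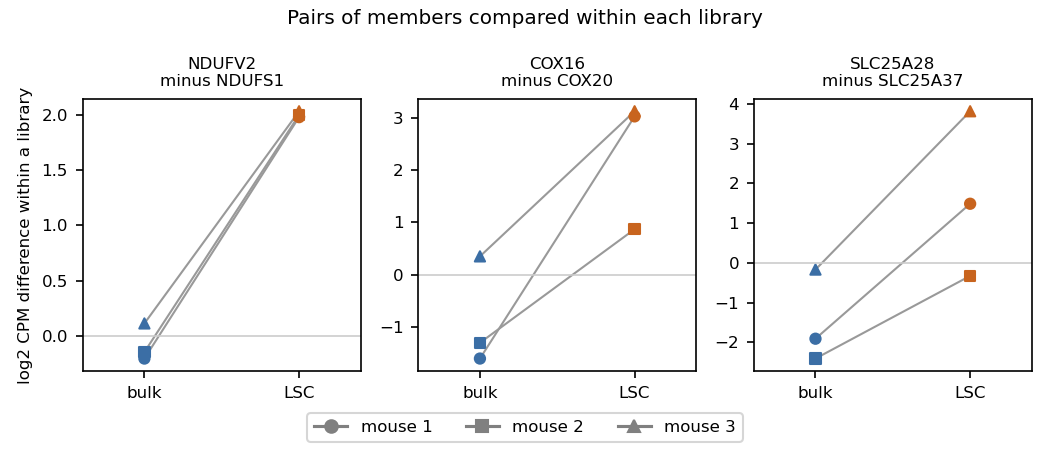
Log2 CPM difference between 2 members within a library (y axis) in bulk and LSC (x axis), one symbol per mouse and a line joining its 2 libraries. The mean shifts are 2.09, 3.19 and 3.16 from left to right. Each pair sets a member that rose in all 3 mice against one that fell in all 3, so the choice fixed the direction of every line.

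The 28 accessory subunits of complex I surround this core and stabilize it. Their median change was 0.26, with 18 positive and 10 negative, and none passed with or without the block. For 4 of them the LSC libraries lay wholly above the bulk ones, or 14.3% beside 13.2% of all genes. These were NDUFA8, NDUFA9, NDUFB2 and NDUFC2, with changes of 1.60, 0.78, 0.70 and 0.61 and adjusted p from 0.264 to 0.351. No accessory subunit was lower in LSC without overlap, beside 11.9% of all genes. NDUFB10 had the lowest change, -1.17, which rests on LSC 3, where the gene had 2 reads (0.166 CPM). In mice 1 and 2 its change was 0.15 and 0.26.

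The 8 assembly factors of complex I had a median of -0.07 and none passed. NDUFAF7, a methyltransferase that acts early in assembly, was 20.6, 24.8 and 27.4 CPM in bulk and 29.0, 33.7 and 34.4 CPM in LSC. The groups did not overlap, but the change of 0.42 (SE 0.30) did not pass (adjusted p 0.459). NDUFAF2, a factor that is released when assembly ends, was 7.04, 4.68 and 5.01 CPM in bulk and 6.15, 1.10 and 2.72 CPM in LSC, with a change of -1.06 and an interval of -2.55 to 0.44. Its groups overlapped because mouse 1 differed little. NDUFAF4 was 15.9, 7.56 and 9.87 CPM in bulk and 13.8, 10.04 and 36.6 CPM in LSC, so that its change of 0.70 came mainly from mouse 3. With reads of its near-copy NDUFAF4P1 added, the change was 0.88, and 0.05, 0.83 and 1.76 in mice 1 to 3. The sum did not pass either (adjusted p 0.301, and 0.121 with the block).

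Complex II, which also serves the citric acid cycle, was the only class with no positive change among its members, though none of its 4 subunits passed and all 4 overlapped. SDHA, the flavoprotein that oxidizes succinate, was 11.5, 13.0 and 11.0 CPM in bulk and 12.1, 13.0 and 8.77 CPM in LSC. Its change was -0.09 with an interval of -0.89 to 0.71. When reads of its near-copies SDHAP1, SDHAP2 and SDHAP3 were added, the change became 0.17, and without LSC 3 it was 0.08. SDHB, the iron-sulfur subunit, was 20.2, 12.1 and 11.9 CPM in bulk and 18.4, 9.97 and 7.68 CPM in LSC. LSC was below bulk within each mouse (-0.13, -0.28 and -0.63), but the groups overlapped, with a mean of -0.35 and an interval of -1.34 to 0.64. SDHC, a membrane anchor, was 17.7, 14.6 and 11.7 CPM in bulk and 15.8, 8.07 and 6.36 CPM in LSC, with a mean change of -0.63 and an interval of -1.61 to 0.35. SDHD, the other anchor, was 18.0, 15.1 and 23.5 CPM in bulk and 18.8, 14.3 and 23.7 CPM in LSC. These values followed the mouse and not the population, and the change was -0.00128 (interval -0.80 to 0.79), or 0.05 when scaled to reads outside MTRNR2L.

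Complex III and cytochrome c had 8 positive and 2 negative changes among 10 genes, with a median of 0.30, and none passed. CYC1, the heme-bearing cytochrome c1 subunit, was 2.25, 5.69 and 1.68 CPM in bulk and 4.23, 9.40 and 14.1 CPM in LSC. LSC exceeded bulk in each mouse, but bulk 2 lay above LSC 1, and the change of 1.57 (SE 0.64) had an adjusted p of 0.214, and 0.0825 with the block. UQCR11, a small supernumerary subunit, was 2.07, 3.24 and 2.39 CPM in bulk and 5.49, 5.47 and 5.85 CPM in LSC. The groups were well separated and the 3 LSC libraries nearly equal, with a change of 1.15 (SE 0.48, adjusted p 0.217, and 0.121 with the block). UQCRQ, another small subunit, was 12.7, 21.1 and 24.6 CPM in bulk and 28.6, 31.5 and 29.7 CPM in LSC, also without overlap (change 0.67, adjusted p 0.310). CYCS, the mobile electron carrier that also triggers apoptosome formation, was 103, 119 and 118 CPM in bulk and 114, 174 and 138 CPM in LSC. LSC 1 lay inside the bulk range, and the change of 0.31 had an interval of -0.30 to 0.92. The core proteins UQCRC1 and UQCRC2 had the 2 negative changes, -0.32 and -0.28.

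Complex IV had a median change of 0.43 over 13 subunits. With the block 2 of them passed, both higher in LSC (15.4%, beside 16.0% of all genes in either direction). COX7A2, the broadly expressed isoform of subunit VIIa, was 4.13, 2.73 and 4.37 CPM in bulk and 13.2, 7.12 and 10.4 CPM in LSC. The lowest LSC library was above the highest bulk library, and the change was 1.44 (SE 0.45, adjusted p 0.118, and 0.0349 with the block). NDUFA4, named for complex I but now assigned to complex IV, was 24.8, 20.3 and 34.2 CPM in bulk and 60.4, 40.1 and 50.05 CPM in LSC. Again no libraries overlapped (change 0.94, SE 0.33, adjusted p 0.151, and 0.0368 with the block). COX6A1, the non-muscle isoform of subunit VIa, did not overlap either but did not pass (13.1 to 15.6 against 18.9 to 23.7 CPM, change 0.56).

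COX4I1 and COX5A were near 0. COX4I1, the regulatory subunit IV, was 22.1, 44.8 and 23.8 CPM in bulk and 22.4, 34.4 and 23.4 CPM in LSC. Both populations of mouse 2 stood above the others, and the change was -0.13 (interval -0.97 to 0.72). COX5A was 36.3, 27.9 and 36.5 CPM in bulk and 36.1, 26.7 and 38.7 CPM in LSC, a change of 0.00419 with an interval of -0.68 to 0.69. The other isoform pairs gave COX6B1 at -0.10 beside COX6B2, an isoform known from testis, at 1.04 (3.44 to 7.22 CPM in bulk, 4.60 to 16.7 CPM in LSC, overlapping, adjusted p 0.337). COX7A2L, which helps supercomplexes form, was at 0.43, COX7C at 0.01 and COX8A at -0.42, all overlapping.

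Of the 9 assembly factors of complex IV, 3 passed with the block, or 33.3% beside 16.0% of all genes. The 9 also held the 2 most negative changes of the chain. COX20, a chaperone of the mitochondrially encoded subunit COX2, was 30.8, 37.1 and 17.6 CPM in bulk and 4.08, 17.1 and 4.98 CPM in LSC. All LSC libraries were below all bulk libraries, although LSC 2 came close to bulk 3, and the change was -1.95 (SE 0.57, adjusted p 0.0967, and 0.0115 with the block). COX16, which acts in the maturation of the copper center of COX2, was 10.1, 15.0 and 22.4 CPM in bulk and 33.3, 31.1 and 43.4 CPM in LSC. Here the LSC libraries were all higher (1.24, SE 0.37, adjusted p 0.106, and 0.0192 with the block). Within libraries, COX16 minus COX20 moved from -1.61, -1.31 and 0.35 in bulk to 3.03, 0.87 and 3.12 in LSC, a shift of 3.19 (SD 1.28).

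COX19, a copper-handling protein of the intermembrane space, was 12.3, 29.9 and 21.3 CPM in bulk and 20.9, 64.7 and 54.8 CPM in LSC. Mouse 1 was low in both populations, so the groups overlapped, but each mouse had more in LSC (0.76, 1.11 and 1.36). Its mean change was 1.08 (SE 0.50), with an adjusted p of 0.262 that became 0.0236 with the block. COX10, which makes the heme A precursor, was 4.47, 5.86 and 3.73 CPM in bulk and 2.38, 0.717 and 1.48 CPM in LSC. It was lower in every LSC library, at -1.76 (SE 0.64), and did not pass (adjusted p 0.167, and 0.0885 with the block). The row antisense to it, COX10-AS1, was 17.4 to 25.5 CPM in bulk and 27.4 to 30.1 CPM in LSC, without overlap, and neither row passed. The sources used here do not say whether the counting used strand. COX15, the next enzyme in heme A synthesis, was 44.4 to 78.1 CPM in bulk and 47.0 to 71.9 CPM in LSC (change -0.13), and COX18, which inserts COX2 into the membrane, was at 0.29.

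**Figure D4:**
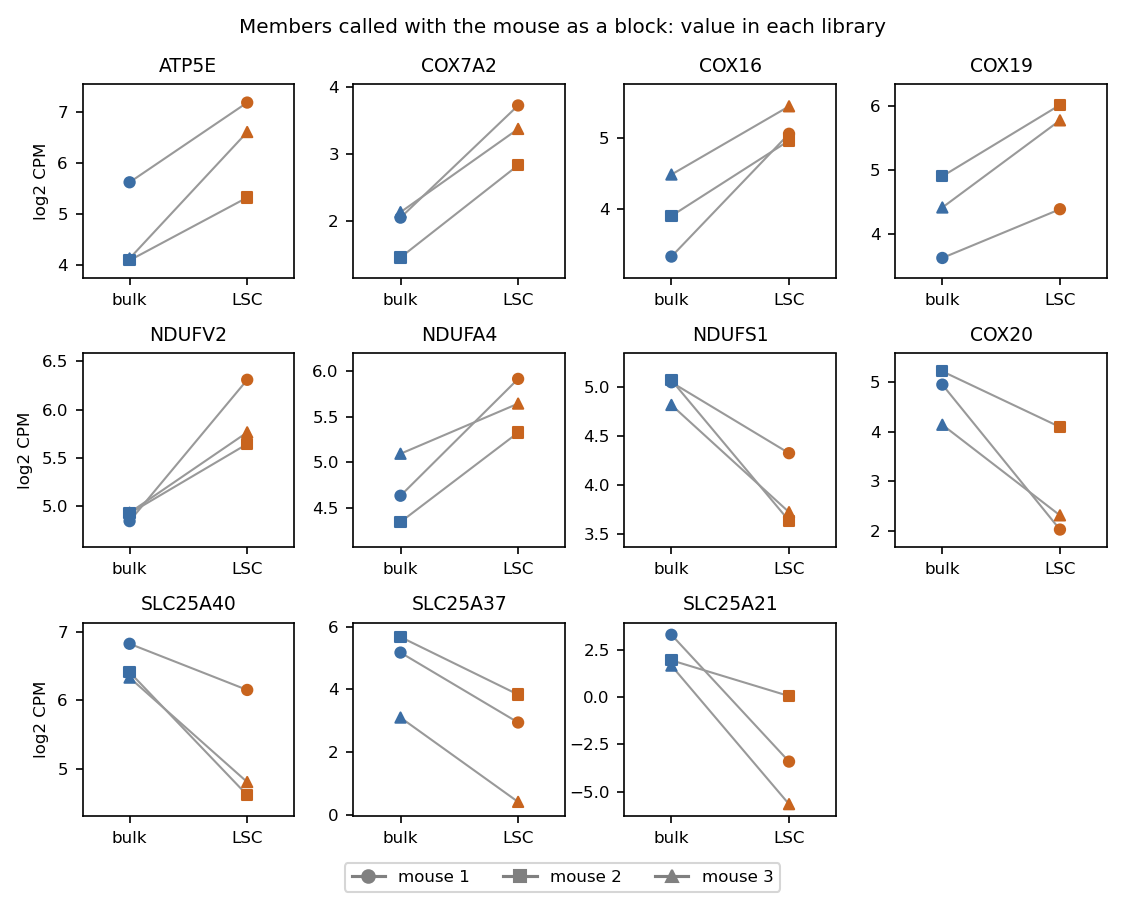
Log2 CPM (y axis, a separate scale in each panel) of 11 members that passed with the mouse as a block, in bulk and LSC (x axis), one symbol per mouse with a line joining its libraries. All lines rise in the 6 panels from ATP5E to NDUFA4 and fall in the 5 from NDUFS1 to SLC25A21.

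ATP synthase had a median change of 0.23 over 15 genes, and 1 passed with the block (6.67%, beside 16.0% of all genes). ATP5E, the epsilon subunit of the central stalk, was 49.3, 17.0 and 17.5 CPM in bulk and 146, 40.1 and 97.7 CPM in LSC. LSC 2 lay below bulk 1, so the groups overlapped, but LSC exceeded bulk in each mouse by 1.57, 1.23 and 2.48. The change was 1.76 (SE 0.56), with an adjusted p of 0.119 without the block and 0.00506 with it. A row for SLMO2-ATP5E, a read-through transcript that shares sequence with ATP5E, was 17.7, 7.56 and 27.5 CPM in bulk and 12.0 and 3.25 CPM in LSC 1 and 2, with 0 reads in LSC 3, where 3 reads are worth 0.219 CPM. With the reads of both rows summed, which was done after seeing the data, the change was 1.06 (SE 0.52) and 1.24, 0.82 and 1.12 in mice 1 to 3. The sum still passed with the block (adjusted p 0.0140, and 0.288 without it), at a smaller size.

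Subunits of the catalytic head of the synthase overlapped between the groups. ATP5A1, the alpha subunit, was 211, 202 and 102 CPM in bulk and 180.0, 113 and 131 CPM in LSC, with a change of -0.24 (interval -1.03 to 0.56). ATP5B, the catalytic beta subunit, was 133, 134 and 174 CPM in bulk and 161, 141 and 171 CPM in LSC. It was among the closely measured members, at 0.11 with an interval of -0.47 to 0.69. ATP5C1, the gamma subunit that turns within the head, was 36.1, 34.0 and 67.8 CPM in bulk and 62.8, 45.0 and 66.2 CPM in LSC, at 0.39. The 3 genes for the same c subunit of the membrane ring, ATP5G1, ATP5G2 and ATP5G3, changed by -0.32, 0.38 and 0.23, all overlapping. In none of the 15 genes did the 2 groups separate, as they did in 25.2% of all genes.

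Of the 36 carriers, 0 were higher and 3 lower in LSC with the block, or 8.33% lower beside 7.71% of all genes. SLC25A37, mitoferrin 1, the iron importer of erythroid cells, was 36.1, 51.0 and 8.59 CPM in bulk and 7.70, 14.3 and 1.33 CPM in LSC. Mouse 3 was low in both populations, and LSC 2 lay above bulk 3, so the groups overlapped. Within each mouse the change was large (-2.23, -1.84 and -2.69), and the mean of -2.25 (SE 0.91) had an adjusted p of 0.208 that became 0.00327 with the block. Erythroid markers (5 of 6 in the table) moved with it: they summed to 270.1, 204 and 96.1 CPM in bulk and 34.6, 50.6 and 10.6 CPM in LSC, with 2 called lower and no read for ALAS2 or EPOR in LSC 3. Granulocyte markers (6 of 6) did so as well, at 1259, 3164 and 123 CPM in bulk and 446, 1054 and 39.6 CPM in LSC, lowest in mouse 3 in both populations, with 0 called without the block and 5 lower with it. Monocyte, B lineage and dividing cell sums were also lower in LSC of each mouse. The part of any of these cells in the SLC25A37 values was not tested.

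SLC25A28, mitoferrin 2, the iron importer of most other cells, had the opposite sign: 9.61, 9.59 and 7.63 CPM in bulk and 21.6, 11.4 and 18.8 CPM in LSC. The groups did not overlap, and the change of 0.90 (SE 0.38) did not pass (adjusted p 0.227, and 0.101 with the block). SLC25A28 minus SLC25A37 within a library shifted by 3.16 (SD 0.98) from bulk to LSC. SLC25A38, which brings in glycine for heme synthesis, was 11.0, 10.6 and 5.97 CPM in bulk and 8.30, 14.2 and 22.3 CPM in LSC, so its direction differed among the mice.

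SLC25A40 and SLC25A39 are paralogs that bring glutathione into mitochondria. SLC25A40 was 113, 85.0 and 80.4 CPM in bulk and 71.0, 24.5 and 28.0 CPM in LSC. All LSC libraries were below all bulk libraries, by -1.33 (SE 0.42, adjusted p 0.118, and 0.0126 with the block). SLC25A39 was 17.5, 26.2 and 8.34 CPM in bulk and 18.6, 11.2 and 14.4 CPM in LSC, with changes of 0.09, -1.22 and 0.79 in the 3 mice and a mean of -0.12. SLC25A39 minus SLC25A40 shifted by 1.22 (SD 0.95), and the difference between the paralogs was not tested.

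SLC25A21, which carries oxodicarboxylates of lysine and tryptophan breakdown, had the change farthest from 0 among the carriers on the deposited log2 scale, an order that turned with a larger pseudocount. It had 57, 45 and 49 reads in bulk 1 to 3 (9.78, 3.83 and 3.15 CPM) and 1, 16 and 0 reads in LSC 1 to 3 (0.0936, 1.03 and under 0.219 CPM, the worth of 3 reads). No libraries overlapped, and the fitted change of -5.31 (SE 1.43, adjusted p 0.0779, and 0.0265 with the block) depends on the small prior. On a log2(CPM + 1) scale it was -2.19, and on a log2(CPM + 5) scale -0.93, where SLC25A37 was at -1.45. The granulocyte and erythroid sums above were lower in LSC too, as were the monocyte, B lineage and dividing cell sums. The part of any of these cells in this gene was not tested.

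Among the carriers of nucleotides and phosphate, SLC25A3, which imports phosphate for ATP synthesis, was 72.8, 74.1 and 70.8 CPM in bulk and 147, 87.3 and 84.5 CPM in LSC. The groups did not overlap, but only mouse 1 differed by much, and the change of 0.50 did not pass (adjusted p 0.378). The ADP/ATP exchangers SLC25A4 and SLC25A5 differed by 0.61 and 0.28, and SLC25A6, of the same kind, by -0.34 (adjusted p 0.710), negative in all 3 mice. The groups overlapped for all 3. SLC25A25, a calcium-regulated carrier of ATP-Mg, was 6.63 to 7.06 CPM in bulk and 9.85 to 15.3 CPM in LSC without overlap (change 0.87, adjusted p 0.229). The pyrimidine nucleotide carriers SLC25A33 and SLC25A36 gave 0.88 and -0.29, and the first rested on mouse 2 (0.528 CPM in bulk, 4.96 CPM in LSC).

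Carriers that feed the matrix with fuel had changes of either sign, and apart from SLC25A21 none passed. SLC25A20, the carnitine and acylcarnitine exchanger of fatty acid oxidation, was 7.55, 5.19 and 4.37 CPM in bulk and 12.1, 11.2 and 10.4 CPM in LSC. The groups were apart, and the change of 1.02 (SE 0.40) had an adjusted p of 0.197, and 0.0812 with the block. The aspartate/glutamate carriers of the malate-aspartate shuttle, SLC25A12 and SLC25A13, were at -0.51 and -0.88, overlapping, and neither passed. SLC25A11, the oxoglutarate carrier of the same shuttle, was 2.42, 4.0 and 1.56 CPM in bulk and 4.90, 4.39 and 0.0926 CPM in LSC. It had 1 read in LSC 3, on which its change of -0.97 rests, and mice 1 and 2 gave 1.02 and 0.14.

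**Figure D5:**
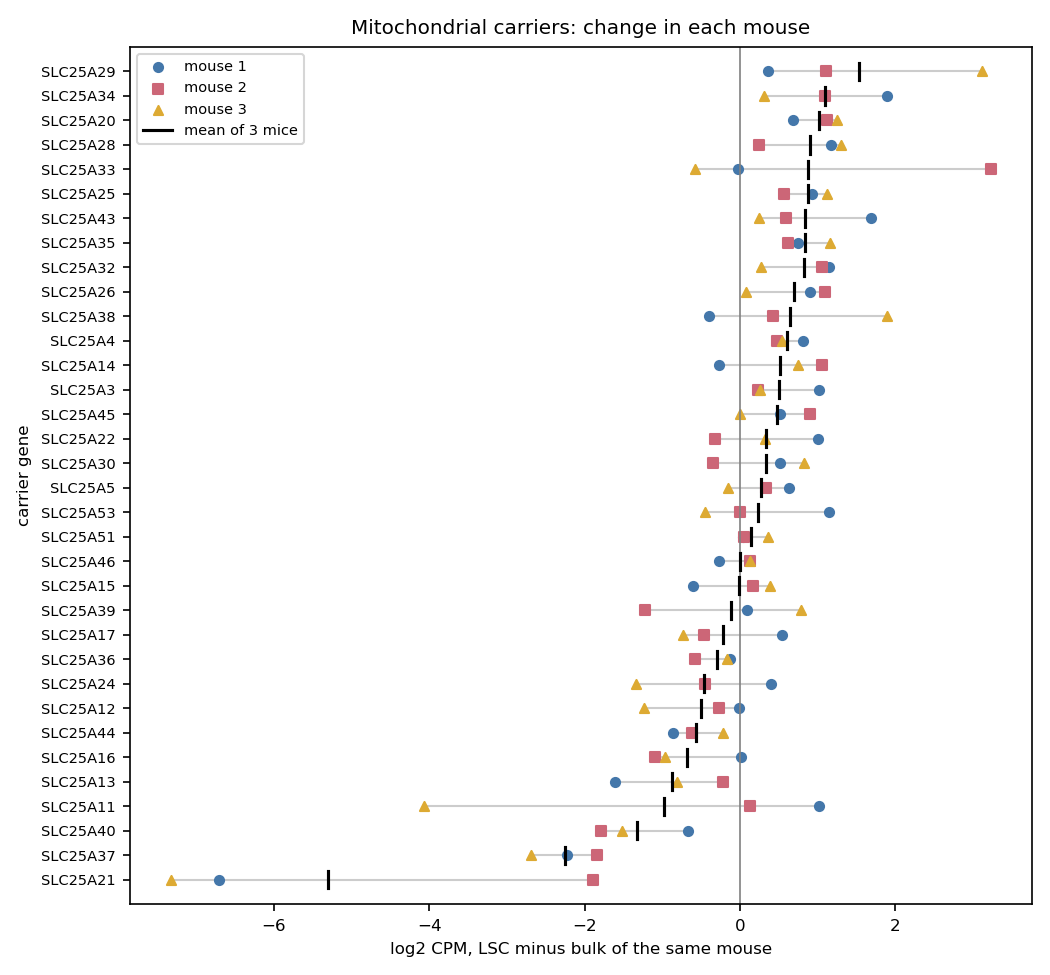
Log2 CPM of LSC minus bulk of the same mouse (x axis) for 34 of the 36 carriers (y axis, ordered by mean), with one symbol per mouse and a black bar for the mean. The 3 mice of SLC25A37 lie between -2.69 and -1.84, while those of SLC25A11 spread over both sides of 0.

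In the authors' deposited table, 9 of the 135 members had an unadjusted p under 0.05, against 12.4% of all its rows. Of these, 4 were higher in LSC in that table, ATP5E, COX16 and COX7A2 among them, and the 5 lower were COX10, COX20, SLC25A21, SLC25A37 and SLC25A40. None had a false discovery rate under 0.05 in the authors' deposited table, where the lowest was 0.161, for SLC25A21.

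Other mitochondrial genes, listed by function with earlier results of these data known, showed 2 calls without the block. The median change of 18 tested citric acid cycle and pyruvate dehydrogenase genes was -0.23. Of these, 0 fell and 1 rose, or 5.56% beside 4.04% of all genes. It was IDH3A, the catalytic subunit of NAD-dependent isocitrate dehydrogenase, at 27.4, 36.2 and 33.5 CPM in bulk and 297, 246 and 252 CPM in LSC (log2 change 3.04, SE 0.26, adjusted p 0.000638). The block added PDHX, an anchoring subunit of pyruvate dehydrogenase, on the lower side (-1.29, adjusted p 0.0306). That made 11.1% called with the block, beside 16.0% of all genes. Of 33 assembly factors with names outside the rule, 1 rose and 0 fell (3.03%, beside 4.04% of all genes), with a median of 0.21. It was HIGD1A, a small hypoxia-inducible partner of complexes III and IV, at 50.4, 48.2 and 65.3 CPM in bulk and 150.4, 160.3 and 163 CPM in LSC (1.54, SE 0.26, adjusted p 0.0147). With the block 4 were higher and 0 lower, or 12.1% beside 16.0% of all genes. Besides HIGD1A these were COA4 (1.66), NUBPL, which delivers iron-sulfur clusters to complex I (0.94), and TIMMDC1, a complex I assembly factor (1.16).

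Of 22 regulators of mitochondrial transcription and biogenesis, none passed without the block, with a median of -0.15. LRPPRC, which stabilizes mitochondrial messenger RNA, passed with it (103 to 145 CPM in bulk, 56.7 to 69.6 CPM in LSC, change -0.88, adjusted p 0.0241). TFAM, which packages mitochondrial DNA, was at 0.10 with an interval of -0.58 to 0.77. Of 25 import and outer membrane genes, none passed without the block and TOMM7, a small subunit of the import pore, was higher with it (1.13, adjusted p 0.0334). Of 13 carriers and transporters outside the SLC25A names, none passed without the block. With it MTCH1, an outer membrane relative of the family, was higher (1.02, adjusted p 0.0289) and MCU, the calcium uniporter, lower (-1.17, adjusted p 0.0238). The share called with the block was 4.55% of the regulators, 4% of the import genes and 15.4% of these carriers and transporters. None of these shares exceeded the 16.0% of all genes.

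Most calls with the block depended on which mice were in the fit, and so did the number of calls over all genes. Of 13755 genes, 1135 were higher and 1060 lower with the block on all 3 mice. These were 386 and 344 without mouse 1, 444 and 296 without mouse 2, and 1747 and 1567 without mouse 3. Whether the losses below go beyond this was not tested. When each mouse was left out in turn and the block kept, SLC25A37 and ATP5E passed in all 3 cases. COX20 lost the call without mouse 1 (adjusted p 0.0854), and SLC25A40 lost it without mouse 2 (0.111). COX16, COX19, COX7A2, NDUFA4, NDUFS1, NDUFV2 and SLC25A21 lost it both without mouse 1 and without mouse 2, where their adjusted p ran from 0.0680 to 0.242. None of the 12 changed direction.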

How the data were processed

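The deposited table covers all samples. The authors' values per library are log2 CPM, with a floor of 0.0197 CPM shared by all 6 libraries, and the reads recovered from them were whole within 0.1 for 100% of values. The deposited table also holds the authors' log2 fold change (bulk minus LSC, sign turned here), a likelihood ratio score and a p-value with its false discovery rate, per the file headers. In the submitters' processing notes, RSEM, Bowtie2, edgeR and the build hg19 appear without version or role. RNA was amplified before sequencing, per the labels' protocols, so reads are not independent molecules and a limit of 3 reads covers counting error only.

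Rows reaching 1 CPM in 3 or more libraries entered the test (13755 of 13892). The test was limma 3.58.1 in R 4.3.3 (two-sided, lmFit and trended eBayes) applied to the log2 values unaltered, with Benjamini-Hochberg adjustment over all genes tested and a threshold of 0.05. A log2 change with so small a prior is unstable for genes with few reads. The primary test has no block. The design pairs the libraries, since equal numbers mean 1 mouse, and the correlation of residuals about the group means within mice 1, 2 and 3 was 0.33, 0.35 and 0.30 (13755 genes). The blocked value is printed where it changes a call. The code was tested on simulated data. The members and gene lists were chosen with earlier results of these data known. Named genes are those that lead each complex and the carriers by moderated statistic or level, members called with the block, isoform sets and a list of carriers; NDUFA8, NDUFA9, NDUFB2, NDUFB10, NDUFC2, NDUFS3, NDUFS8, NDUFV1, UQCRC1, UQCRC2, COX5A, COX15, COX10-AS1, SLC25A25 and rows outside the rule were named after their values were seen. Values of SLC25A6 by library are not given, and results of some other genes are not reported here. Dates stand in place of 21 symbols, and 1 symbol occurs more than once.

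Alternatives were log2(CPM + 1) and log2(CPM + 5), the filter dropped or raised to 5 CPM, quantile normalization, scaling to reads outside MTRNR2L, no trend, voom on the recovered reads, the block, and leaving out each library or mouse. Added after seeing the data were the block on 2 mice and sums of rows that share sequence.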

Additional observations from a re-analysis of the deposited data

How the results depend on the processing

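Without the block the count of called members stayed at 0 in most alternatives. Carriers lower in LSC numbered 1 with log2(CPM + 1), log2(CPM + 5) and quantile normalization, and 0 to 1 when libraries or mice were left out (1 without LSC 1, SLC25A40, and 1 without LSC 2, SLC25A21). Respiratory chain genes higher numbered 1 with either pseudocount, and those lower 0 to 1 with libraries left out (1 without LSC 2, COX20). Among all 13755 genes, log2(CPM + 1) called 446 higher and 302 lower, log2(CPM + 5) 412 and 280, and quantile normalization 389 and 264. Without LSC 1 these counts were 168 and 91, and without LSC 2 they were 303 and 169. With the replicate block, and with voom and the block or summed rows and the block, 7 chain genes were higher, 2 lower and 3 carriers lower. Those fits called 1135, 1216 and 1137 of all genes higher, and 1060, 1217 and 1064 lower. The block with mouse 1, 2 or 3 left out was chosen after seeing the data. In that order, chain genes higher numbered 1, 2 and 9, and those lower 0, 1 and 4. Carriers higher numbered 0, 0 and 5, and carriers lower 2, 1 and 4. Over all 13755 genes the same fits called 386, 444 and 1747 higher and 344, 296 and 1567 lower. The chain median of 0.23 ran from 0.16 to 0.35 with libraries or mice left out (0.35 without mouse 2), and that of the carriers from 0.15 to 0.42. Both medians were positive in all alternatives run.

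The following changes reversed sign, SLC25A11 (-0.97) and SLC25A33 (0.88) among them, and the cause was not tested. COX7C was -0.070 with quantile normalization, -0.085 with voom and -0.077 with voom and the block. SDHD was 0.000238 with log2(CPM + 5) and 0.054 scaled to reads outside MTRNR2L, SLC25A11 was 0.038 with log2(CPM + 5) and 0.12 with voom and the block, and SDHA was 0.17 with summed rows, with or without the block. With 1 mouse left out, with or without the block, reversed values were 0.014 for ATP5G1, 0.072 for COX6B1, 0.038 for SDHD, -0.30 for SLC25A33 and 0.44 for SLC25A39 (without mouse 2), -0.094 for ATP5G2, 0.034 for SDHA and 0.58 for SLC25A11 (without mouse 3), and -0.50 for COX7C (without mouse 1). With libraries or mice left out, the ranges crossed 0 for ATP5G1 (-0.54 to 0.014), ATP5G2 (-0.28 to 1.08), ATP5G3 (-0.0026 to 0.42), COX4I1 (-0.33 to 0.19), COX6B1 (-0.42 to 0.36), COX7A2L (-0.062 to 0.97), COX7C (-0.50 to 0.43), SDHA (-0.20 to 0.083), SDHD (-0.18 to 0.19), SLC25A11 (-1.97 to 0.91), SLC25A33 (-0.30 to 1.60) and SLC25A39 (-0.57 to 0.44). A filter of 5 CPM removed 8 of the 51 named genes. Bulk 1 was the shallowest library, and LSC 3 had the most genes without a read (262).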
